A study of Mus musculus with 6 samples.

Results

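The miR-378 family and Ppargc1b, the gene that carries its main member in an intron, make up 8 of the 109108 features counted in these small RNA libraries. They comprise 5 of the 2035 mature miRNA rows (miR-378a-3p, miR-378a-5p, miR-378b, miR-378c and miR-378d) and all 3 transcript spans of Ppargc1b, taken by name. The family itself was chosen by the fall of miR-378a-3p between the genotypes compared below. The changes of its members in that comparison are therefore a description, are given with no p-value, and support nothing. Small RNA (Illumina TruSeq libraries) came from the hippocampus of male C57BL/6 mice aged 3 months, all homozygous for a floxed Dicer1 gene and all given tamoxifen 3 weeks before sampling. The 3 Dicer1-ifKO libraries came from mice with the added CaMKIIa-creERT2 transgene, a recombinase active after tamoxifen in excitatory neurons of the forebrain. The 3 WT libraries came from mice without it, so WT here means floxed and treated with tamoxifen. Each library held RNA pooled from 3 mice, or 9 per genotype, while the submitters' design text gives 12 per genotype, a difference left unexplained. Other hippocampal cells keep Dicer1, so loss in the recombined neurons and a lower number of such cells cannot be told apart in whole tissue.

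Dicer1 is the ribonuclease that cuts precursor hairpins into short duplexes, of which usually a single arm is kept in an Argonaute protein as the mature miRNA. The mature miRNA finds its targets mainly through its seed, bases 2 to 8. miR-378 is best known from muscle, liver and fat, where it acts on oxidative metabolism. Ppargc1b encodes PGC-1β, a transcriptional coactivator that works with nuclear receptors, the estrogen-related receptors among them, to raise mitochondrial gene expression. Since miR-378a is cut out of an intron of this gene, host and miRNA share a primary transcript, while only the miRNA needs Dicer1 to mature.

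The 3 paralogs show how alike the family is, and how little separates the reads of one row from those of another. Capitals mark the seed in the RefSeq mature sequences (GRCm38.p6), written 5′ to 3′.
miR-378b: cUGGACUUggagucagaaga
miR-378c: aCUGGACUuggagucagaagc
miR-378d: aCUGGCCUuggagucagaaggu
Counted from the 5′ end of miR-378c, miR-378d differs by A6C, inside the seed, and by C21G, and is longer by 1 base. miR-378b starts 1 base later, which shifts its seed, and then differs from miR-378c by C21A alone. The sequence of miR-378a is not shown here. Reads trimmed at the 3′ end can fit both miR-378b and miR-378c, while such trimming leaves A6C of miR-378d in place. The division of reads among the rows of the family was not tested and stays uncertain.

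The family lies at 4 loci (GRCm38, GENCODE M21). miR-378a-3p (chromosome 18, 61397838 to 61397858, minus strand) and miR-378a-5p (61397875 to 61397896) are the arms of a 66-base hairpin in an intron of Ppargc1b on the same strand, with miR-378a-3p 2573 bases downstream of the gene's start. miR-378c (chromosome 14, 46954905 to 46954925, minus strand) lies in an intron of Samd4 on the opposite strand, and miR-378b (chromosome 11, 88352839 to 88352858, plus strand) lies likewise in an intron of Msi2. Samd4 and Msi2 both encode RNA-binding proteins. miR-378d (chromosome 10, 126710355 to 126710376, minus strand) overlaps no other annotated gene. The paralogs do not share an arm: miR-378a-3p and miR-378b sit on the 3′ side of their annotated hairpins, and miR-378c and miR-378d on the 5′ side.

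Levels are given as CPM, the usual depth-scaled counts, here over the tested features and with TMM factors. Overlapping features each count a shared read, so CPM are no share of reads. The miRNA rows held 2318205 to 3179363 counts per library. Few reads covered the deleted gene, with 33 to 47 counts on the Dicer1 span in WT and 32 to 37 in Dicer1-ifKO libraries. The span is the whole gene and not the deleted part, so it checks no label. The neuronal marker miRNAs of the tissue were present, summing to 3508 to 4457 CPM in WT and 2888 to 3695 CPM in Dicer1-ifKO. These ranges overlapped, and the members did not move alike. Means in WT and Dicer1-ifKO were 1510 and 1093 CPM for miR-128, and 1028 and 1042 CPM for miR-9.

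miR-378a-3p, the arm that makes up most of the family, fell to 0.551 of its WT level. It stood at 86.2, 86.9 and 103 CPM in WT replicates 1, 2 and 3, and at 51.1, 50.02 and 51.1 CPM in Dicer1-ifKO replicates 1, 2 and 3. Every Dicer1-ifKO library lay below every WT library, and the Dicer1-ifKO libraries were close together while WT replicate 3 stood above the other WT libraries. Mean levels were 92.1 ± 9.75 (WT) and 50.8 ± 0.63 CPM (Dicer1-ifKO; SD, n = 3 each). The fitted log2 change was -0.86 ± 0.14 (SE), which was past the threshold of edgeR's quasi-likelihood fit (adjusted p of 0.05 over 6539 features). Of the 546 tested miRNA rows, 36 were called lower by that fit, or 6.59%, and 0 higher, while 11 had a higher value at an unadjusted p of 0.05 and DESeq2 called 0 higher. The number lower was 8 with TMM factors taken from the miRNA rows, and ran from 1 (without Dicer1-ifKO replicate 2) to 70 (without WT replicate 1) as single libraries were left out, while the miRNA rows fitted alone gave 36 lower and 11 higher. The call of miR-378a-3p is part of what chose it, and nothing is read from that count. As a share of all miRNA counts, which does not depend on the scaling to other features, miR-378a-3p took 0.155%, 0.144% and 0.151% in WT and 0.0914%, 0.0971% and 0.101% in Dicer1-ifKO, again with no overlap.

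The call, unlike the direction, was lost when any of 5 of the 6 libraries was left out. The log2 change was lower than 0 in each of 15 alternative settings, from -0.91 to -0.61, and was called in 8 of them. Leaving out WT replicate 1 kept the call. It was not made without WT replicate 2 (log2 -0.89), WT replicate 3 (-0.73), or Dicer1-ifKO replicate 1 (-0.87), 2 (-0.83) or 3 (-0.87). TMM factors taken from the miRNA rows shifted the median log2 change of those rows from -0.24 to 0.0013, and miR-378a-3p then had -0.61 and was not called.

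**Figure D1:**
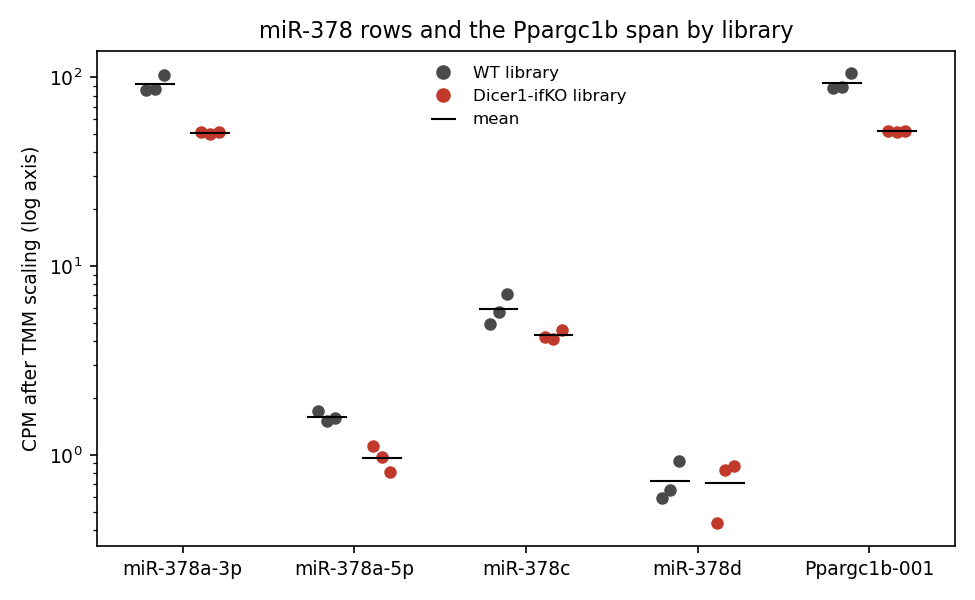
Level of each tested miR-378 row and of the longest Ppargc1b span in each library (CPM on a log axis; points are libraries, bars are means of 3). miR-378a-3p lies at 86.2 to 103 CPM in WT and 50.02 to 51.1 CPM in Dicer1-ifKO, the span follows it, and the genotypes overlap for miR-378d alone.

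**Figure D2:**
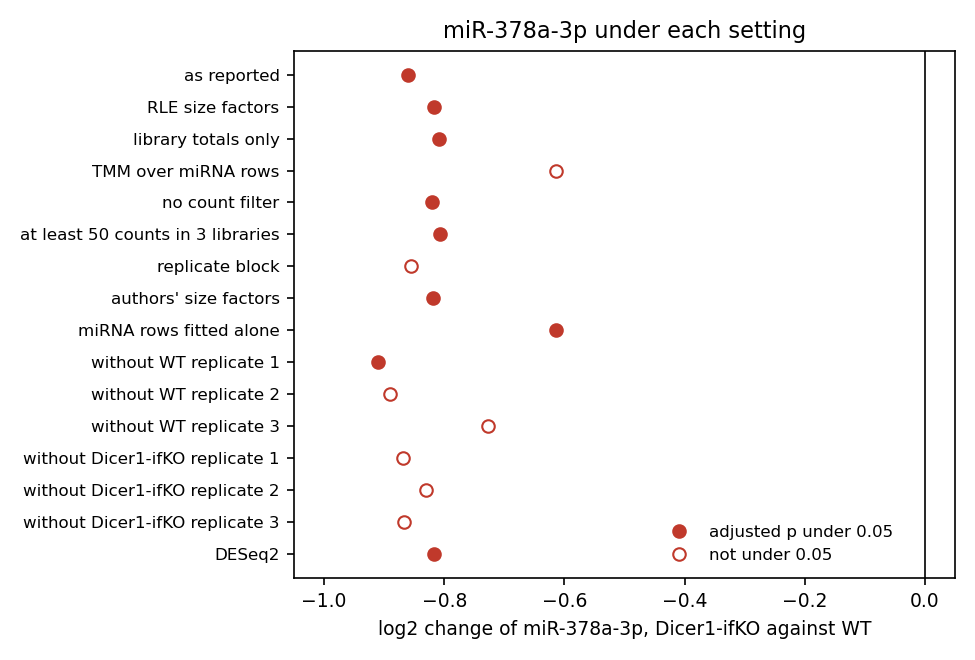
Fitted log2 change of miR-378a-3p (x axis) under the reported and 15 other settings (y axis), with filled points where the adjusted p was under 0.05. All lie between -0.91 and -0.61, and 5 of the 6 fits that leave out a library have open points.

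The other arm of the hairpin was rare and lay lower in the same libraries. miR-378a-5p, the passenger strand, had 83, 72 and 73 counts in WT and 46, 52 and 38 in Dicer1-ifKO libraries. Its levels were 1.70, 1.51 and 1.57 CPM in WT and 1.11, 0.978 and 0.810 CPM in Dicer1-ifKO, with no overlap. The means were 1.59 ± 0.10 and 0.966 ± 0.150 CPM (SD, n = 3 each), and the log2 change of -0.72 ± 0.20 (SE) did not reach the threshold of the fit.

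The balance of the arms is also given with no test, since miR-378a-3p, whose values chose the family, makes up nearly all of the counts. miR-378a-5p made up 1.93%, 1.70% and 1.499% of both arms in WT and 2.12%, 1.92% and 1.56% in Dicer1-ifKO. The genotypes overlapped, and the widest exact binomial 95% interval of a library ran from 1.56% to 2.82%. The mean shares of 1.71% ± 0.22 and 1.87% ± 0.28 (SD, n = 3 each) lay closer together than 1 SD of either.

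Of the paralogs, miR-378c was the most abundant. It had 241, 273 and 330 counts in WT and 174, 218 and 215 in Dicer1-ifKO libraries. The levels were 4.93, 5.71 and 7.11 CPM in WT against 4.20, 4.10 and 4.58 CPM in Dicer1-ifKO. No Dicer1-ifKO value reached a WT value, but the gap between the highest of one and the lowest of the other was smaller than the spread among WT libraries. Its means were 5.92 ± 1.11 and 4.29 ± 0.26 CPM (SD, n = 3 each), and the log2 change of -0.46 ± 0.18 (SE) did not reach the threshold. Without WT replicate 3, its highest library, the log2 change was -0.27, and with TMM factors taken from the miRNA rows it was -0.205.

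miR-378d was rare and had no direction. It had 29, 31 and 43 counts in WT and 18, 44 and 41 in Dicer1-ifKO libraries, or 0.593, 0.649 and 0.927 CPM against 0.434, 0.827 and 0.874 CPM. The genotypes overlapped, with the lowest value of all in Dicer1-ifKO replicate 1 and the highest in WT replicate 3. The log2 change of -0.01 ± 0.29 (SE) turned to 0.27 with TMM factors taken from the miRNA rows. miR-378b was at the limit of detection, with 4, 1 and 0 counts in WT and 1, 1 and 3 in Dicer1-ifKO libraries. It did not pass the count filter, a count of 0 allows up to 3 counts, and no change can be given for it.

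Of the 5 miRNA members, 4 passed the count filter. In 3 of these, miR-378a-3p, miR-378a-5p and miR-378c, every Dicer1-ifKO value lay below every WT value, as it did in 33.9% of all tested miRNA rows. By abundance miR-378a-3p ranked 86 among the 546 tested rows, miR-378c 243, miR-378a-5p 373 and miR-378d 425. From the lowest log2 change upward they ranked 49, 164, 71 and 411 in the same order, beside a median of -0.24 for all tested miRNA rows. The family summed to 93.5, 94.8 and 113 CPM in WT and 56.9, 55.9 and 57.4 CPM in Dicer1-ifKO. Since miR-378a-3p held 89.0% to 92.2% of these counts, the sum follows it: its log2 ratio was -0.82, and -0.46 with miR-378a-3p left out.

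**Figure D3:**
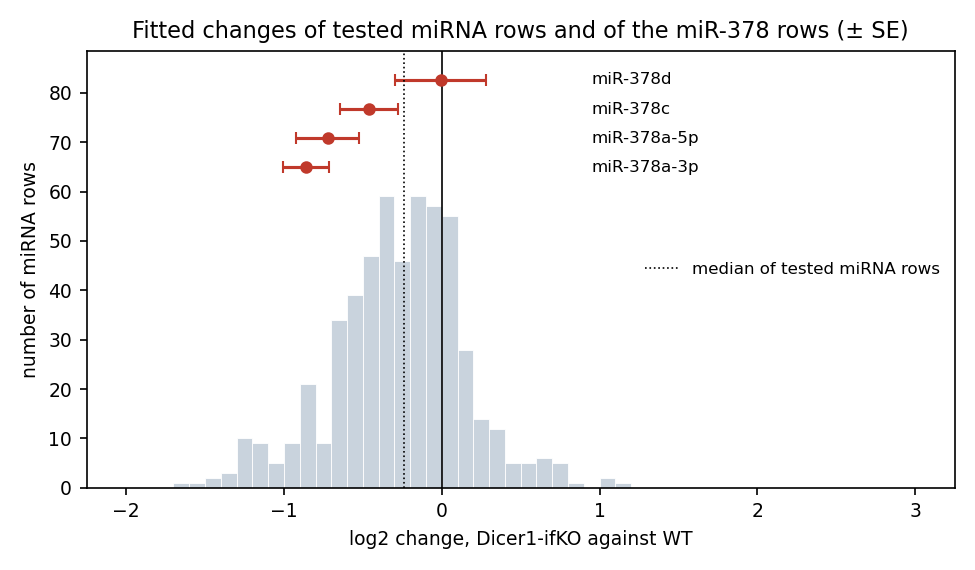
Distribution of the fitted log2 change (Dicer1-ifKO against WT, x axis) over 546 tested miRNA rows (y axis, number of rows), with the 4 tested miR-378 rows above it as points with their SE. The dotted line is the median of -0.24. miR-378a-3p and miR-378a-5p lie to its left at -0.86 and -0.72, and miR-378d lies at -0.01.

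The make-up of the family is described by the shares of its paralogs, which contain the counts that chose the family and were taken up after those counts had been seen, so no test is given. Of the counts of miR-378c and miR-378a-3p together, miR-378c took 5.41%, 6.17% and 6.44% in WT and 7.58%, 7.57% and 8.23% in Dicer1-ifKO. All Dicer1-ifKO libraries lay above all WT libraries. The means were 6.00% ± 0.53 and 7.80% ± 0.38 (SD, n = 3 each). The share of miR-378d, taken in the same way, was 0.683%, 0.741% and 0.888% in WT and 0.842%, 1.63% and 1.68% in Dicer1-ifKO, with an overlap. Both shares hold miR-378a-3p in the denominator, so a fall of that row alone raises them. Whether reads of miR-378a fell into the rows of its paralogs was not tested.

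**Figure D4:**
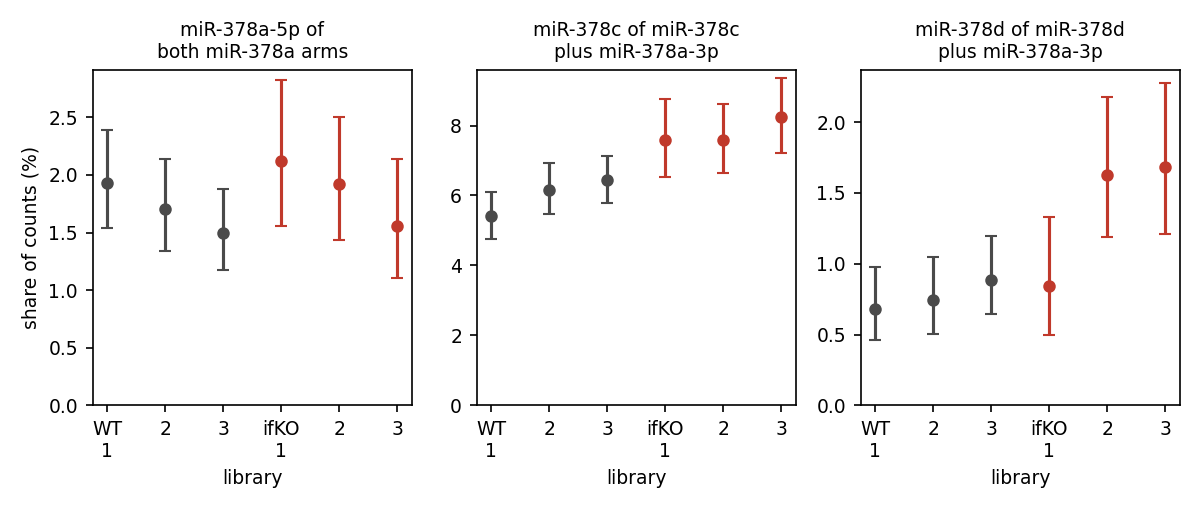
Share of miR-378a-5p in both arms, and of miR-378c and miR-378d in their sums with miR-378a-3p, in percent for each library (points, with exact binomial 95% intervals that cover counting error only). The miR-378c share is 5.41% to 6.44% in WT and 7.57% to 8.23% in Dicer1-ifKO, while the genotypes overlap in the other panels.

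The host spans repeated the miRNA. Ppargc1b-001 (chromosome 18, 61298136 to 61400431, minus strand) covers the whole gene and had 4303, 4228 and 4875 counts in WT and 2166, 2716 and 2438 in Dicer1-ifKO libraries. Ppargc1b-002 had the same counts in every library, and the shorter Ppargc1b-003 had 4298, 4225 and 4872 against 2165, 2712 and 2436. The arms of miR-378a account for 99.90% of the counts of Ppargc1b-001 and 99.99% of those of Ppargc1b-003. The log2 change of Ppargc1b-001, -0.86 ± 0.14 (SE), and its call are thus those of miR-378a-3p counted again and say nothing of the host. Of the 5993 tested features other than miRNA rows, 17 (0.284%) were called, Ppargc1b-001 and Ppargc1b-003 among them.

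With the reads of both arms taken out, 5, 4 and 4 counts were left on Ppargc1b-001 in WT and 0, 4 and 3 in Dicer1-ifKO libraries. These are fragments from anywhere in the gene, and this remainder did not pass the count filter. Pooled over libraries, 13 counts in WT and 7 in Dicer1-ifKO gave a ratio of 0.544 after scaling, with an exact 95% interval of 0.184 to 1.47 that covers counting error only. On the log2 scale this is -0.88, and it was -0.38 without Dicer1-ifKO replicate 1, the library with no count, and -1.42 without Dicer1-ifKO replicate 2. A change in the host was not detectable at this depth, in either direction. On Ppargc1b-003 the arms summed to 1 count more than the span in Dicer1-ifKO replicate 1, so the rows do not divide the reads of the span exactly.

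The Samd4 span shows the same for a row on the opposite strand. It had 1486 counts over all libraries, and miR-378c, inside it, had 1451, or 97.64% of them. Reads were thus counted without regard to strand. The 35 counts left on the Samd4 span can come from either strand, as can those left on Ppargc1b-001. On Msi2-001, miR-378b made up only 10 of 124 counts, and the rest had a log2 change of 0.21 ± 0.33 (SE).

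Other miRNAs that lie inside protein-coding genes were set beside miR-378a and Ppargc1b in a list of 24 pairs. Their miRNA rows, with 21 distinct names, were below 0 in 20 pairs, with a median of -0.40 on the log2 scale. Over the 546 tested miRNA rows the share below 0 was 75.46% and the median -0.24. miR-874-3p, in Klhl3, was the 1 row called lower (-1.06 ± 0.16 SE) and was also the lowest, and 0 were called higher, beside the 6.59% of all tested miRNA rows called lower. The most abundant, the rows of miR-26a-5p in Ctdspl and Ctdsp2, had nearly the same mean levels, 3043 CPM in Ctdsp2 and 3051 CPM in Ctdspl. Both stood at -0.42 ± 0.13 (SE), and miR-128-3p in R3hdm1 at -0.43 ± 0.13 (SE). miR-378a-3p, at -0.86, thus lay inside the range of the list, -1.06 to 0.36, but toward its low end and below its median of -0.40. Whether it differs from these rows was not tested.

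The host spans of these pairs also had few counts besides those of miRNA rows. In 15 of the 24 pairs over 99% of the span's counts were miRNA counts, as in Ppargc1b, and in 1 other pair (miR-139 in Pde2a) the rows inside held more counts than the span. Without miRNA counts 12 of the 24 hosts passed the count filter. Their log2 changes ran from -0.61 to 0.19 with a median of -0.19, and 0 were called by edgeR, 1 at an unadjusted p of 0.05 and 0 by DESeq2. All tested features other than miRNA rows had a median of -0.03, and edgeR called only 0.284% of them. The 0 calls among 12 hosts therefore do not show that the hosts were unchanged. Klhl3 without miR-874 had 33 counts in WT and 22 in Dicer1-ifKO (log2 -0.55 ± 0.41 SE). R3hdm1 without miR-128 had 105 and 119 counts (0.19 ± 0.27 SE).

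**Figure D5:**
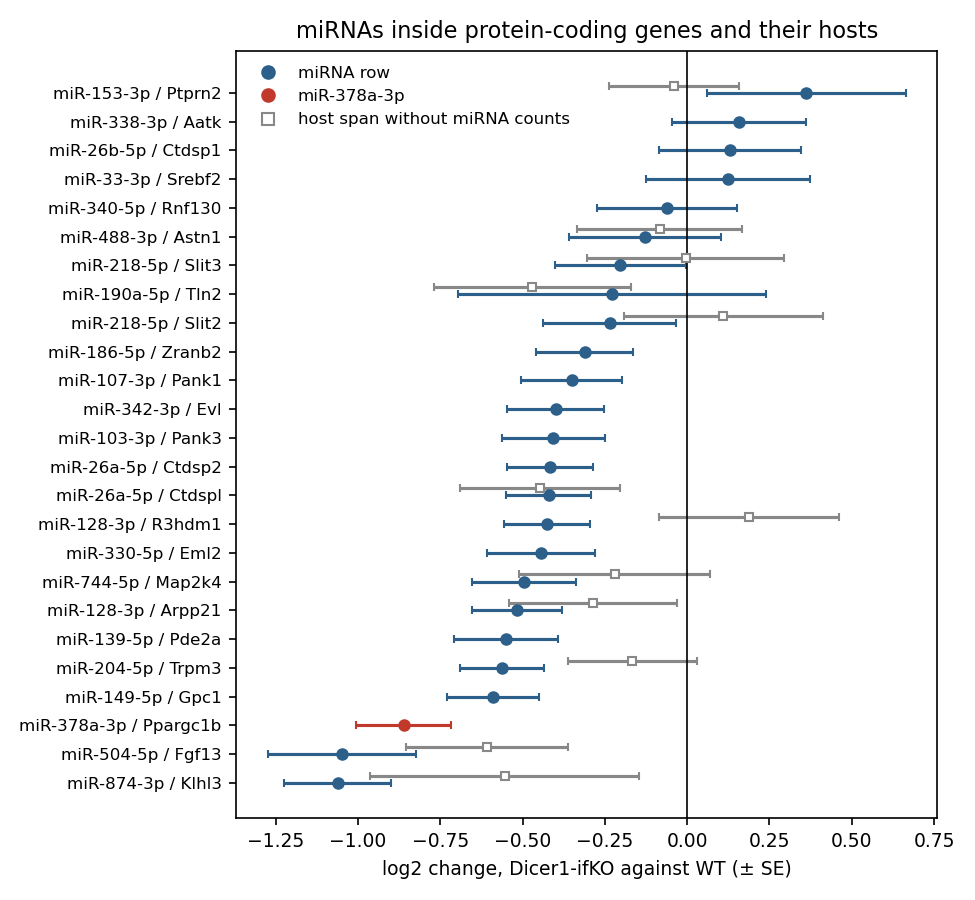
Fitted log2 change (x axis, ± SE) of miRNA rows inside protein-coding genes (circles) and of their host spans without miRNA counts (open squares, where these passed the count filter), sorted by the miRNA. miR-378a-3p (red) lies at -0.86 between -1.06 and 0.36, and Ppargc1b has no square because 20 counts were left on it.

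The partners of PGC-1β could hardly be read from small RNA. Of 30 genes listed for this pathway, 29 had a span and 6 passed the count filter, with 0 called lower and 0 called higher by edgeR, 0 at an unadjusted p of 0.05 and 0 by DESeq2. Among all tested features other than miRNA rows edgeR called only 0.284%, so 0 calls among 6 spans say nothing of the pathway. Leaving Atp5b aside, the spans held 2 to 235 counts over all libraries. Ppargc1a, the sister coactivator, had 8, 10 and 2 counts in WT and 1, 8 and 7 in Dicer1-ifKO. Of the nuclear receptors, Esrra had 28 counts in all, 16 of them in a miRNA row inside it, Esrrg had a log2 change of -0.33 ± 0.29 (SE), and Pparg, the fat cell receptor, one of 0.12 ± 0.25 (SE). Med13, a subunit of the Mediator complex, had 0.33 ± 0.27 (SE). The count of 405393 on Atp5b, which encodes a subunit of ATP synthase, was almost wholly that of a snoRNA row inside it (399992 counts). Ncoa1 stood at 0.24 ± 0.28 (SE) and Ncoa2 at -0.15 ± 0.31 (SE). The 6 tested spans had a median log2 change of -0.0001, beside -0.03 for all tested features other than miRNA rows. That median includes Atp5b (-0.12 ± 0.14 SE), whose value is almost wholly that of the snoRNA row, so it does not describe the pathway genes alone.

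The rows most like miR-378a-3p across the 6 libraries were all lower in Dicer1-ifKO as well. Likeness was Pearson's r of log2 CPM over 389 other miRNA rows with a mean of at least 50 counts, given as a description, since a shared difference between the genotypes raises it. The median r was 0.64, and 90 rows had an r over 0.9. miR-187-3p came first (r = 0.998), with 10.5, 10.9 and 14.1 CPM in WT and 5.26, 4.70 and 5.12 CPM in Dicer1-ifKO. The chromosome 2 locus of miR-129-5p (r = 0.996) stood at 19.3, 19.3 and 22.2 CPM against 9.43, 9.01 and 8.97 CPM. The next, miR-129b-3p, lies opposite to it on nearly the same bases, with nearly the same counts. miR-672-5p and miR-300-3p (both r = 0.992) stood at 6.31 ± 1.16 against 2.46 ± 0.21 CPM and at 174 ± 17.7 against 109 ± 5.21 CPM (SD, n = 3 each). In all of them WT replicate 3 was the highest library, as it was for miR-378a-3p. The rows were picked for likeness over these same libraries, so this and their lower values in Dicer1-ifKO follow largely from the choice.

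Of the tissues in which miR-378 is prominent, markers of striated muscle and brown fat were low, and no liver markers were listed. The 7 striated muscle miRNAs listed summed to 4.88 to 7.15 CPM in WT and 5.46 to 6.66 CPM in Dicer1-ifKO, with 5 of 18 rows at 0. Nearly all of it was miR-133a, at means of 5.14 and 5.27 CPM, while the muscle-defining miR-1a had 0.0984 and 0.0705 CPM and miR-206 0.00697 and 0.00804 CPM. The brown fat miRNAs miR-193b and miR-365 summed to 4.75 to 5.25 CPM in WT and 4.43 to 4.93 CPM in Dicer1-ifKO. Both lists overlapped between the genotypes.

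Among lists for other cells of the hippocampus, some sums lay apart between the genotypes, each made up nearly wholly by 1 miRNA. Choroid plexus and epithelial miRNAs summed to 322 to 348 CPM in WT and 221 to 239 CPM in Dicer1-ifKO, nearly all of it miR-204, with 2 of 12 rows at 0. Those of microglia and leukocytes summed to 127 to 159 CPM in WT and 164 to 181 CPM in Dicer1-ifKO, nearly all of it miR-150, with 1 of 6 rows at 0. Their part in the change of miR-378a-3p was not tested. The sums of the oligodendrocyte (218 to 340 against 258 to 350 CPM), vessel (362 to 595 against 459 to 622 CPM) and erythrocyte lists (8.93 to 12.7 against 9.08 to 10.98 CPM) overlapped. Of 34 tested neuronal rows 2 were called lower, both miR-129-5p, and 0 higher, a share near the 6.59% of all tested miRNA rows called lower. In the other 7 lists 0 rows were called by edgeR or by DESeq2, with 1 erythrocyte and 1 choroid plexus row at an unadjusted p of 0.05. These lists had only 1 to 6 tested rows each, so 0 calls do not set them apart from the share of 6.59%.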

How the data were processed

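The deposited tables list whole-number read counts per feature, made by the authors with no scaling, and a normalized signal, which in each library equals the authors' counts times 1 constant. BWA, DESeq2, SAMtools 0.1.18 and CASAVA 1.8.2 stand in the submitters' processing notes beside the builds mm10 and GRCm38, with no roles. Not given in the sources used here are the counter, its handling of strand and multiply aligned reads, and its annotation. Summed counts per library were 55101387 to 77428956, more than the reads, since features overlap. Per the labels the pools are biological replicates, and within a genotype the libraries differed by more than counting noise (chi-square per degree of freedom of 21.6 or more over miRNA rows).

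The columns of WT replicate 2 carry a sequencing-run name where the others carry the sample's title, and were taken as that sample because its file was deposited under it.

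Rows of 1 gene with identical counts were counted once (43307 dropped, most of them empty). edgeR 4.0.16 in R 4.3.3 was used with filterByExpr (minimum count 10), TMM, and the robust quasi-likelihood test (glmQLFit, glmQLFTest; two-sided), adjusted by Benjamini-Hochberg over 6539 features. DESeq2 1.42.0 and other scalings and filters were alternatives. Host remainders are span counts minus miRNA rows inside, with overlapping rows taken once. Positions are from GENCODE M21, and the 3 paralog sequences were matched by name in RefSeq's table. The permutation test planned for the share of the arms is not given, because the counts that chose the family make up that share. Named besides the members were called list members, up to 3 abundant ones of a list, and the 5 rows most like miR-378a-3p (log2 of CPM plus 0.5). The marker names miR-142a and miR-486a matched no row. Members, lists and tests were chosen with earlier results of these data known. Further genes of the pathway and marker lists, Samd4, Msi2, and the shares of miR-378c and miR-378d were named outside that rule after their values were seen.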

Additional observations from a re-analysis of the deposited data

How the results depend on the processing

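With TMM factors taken from the miRNA rows, miR-378a-3p and Ppargc1b-001 both had a log2 change of -0.61 and were not called, and 8 miRNA rows were lower. That scaling moved the median of the other features from -0.03 to 0.20. In a fit of the miRNA rows alone, miR-378a-3p stood at -0.61 and was called, with 36 rows lower and 11 higher. On library totals alone 16 rows were lower. With the replicate block, miR-378a-3p (-0.86) and Ppargc1b-001 (-0.85) were not called and 3 rows were lower. The replicate numbers are not known to pair the pools: deviations of same-numbered libraries had correlations of -0.23, 0.17 and -0.24, and 1 of 3 WT libraries correlated best with its own number.

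Leaving out 1 library gave -0.91 to -0.73 for both miR-378a-3p and Ppargc1b-001, and 1 to 70 lower rows, the extremes being without Dicer1-ifKO replicate 2 and without WT replicate 1. miR-378d turned to 0.0381 with RLE size factors, 0.0395 with library totals, 0.0354 with the authors' size factors, 0.0290 without a count filter, 0.0328 with DESeq2, and to 0.27 with either use of the miRNA rows alone, and ran from -0.17 to 0.25 without single libraries. The family sum without miR-378a-3p had -0.46. The authors' size factors, that sum and the miR-378c share were added after the data were seen. No family rows held identical counts, so the sum over distinct rows was not run. miR-378b and the host remainder are limited by depth, and the cause of each lost call was not tested.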
